A study of Mus musculus with 22 samples.

Results

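A set of 10 imprinted growth genes was followed in sorted mouse skin fibroblasts: H19, Igf2, Dlk1, Meg3, Peg3, Plagl1, Cdkn1c, Mest, Grb10 and Ndn. They were taken from the deposited table by the identifiers that carry these symbols, and all 10 were found among its 55414 genes. Fibroblasts had been sorted from mouse back skin on days 1, 2 and 4 after surgery. Every mouse was operated on: EXP mice received an expander hydrogel under the back skin near the neck, which stretches the skin above it, and CTRL mice received none. Genotype, strain, sex and age are not given in the labels used here.

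Across the 3 days there were 4, 3 and 4 CTRL libraries and 5, 3 and 3 EXP libraries, 22 in all. The sort removed cells with CD31, CD45, CD117 or EpCAM and kept live cells carrying CD34 and PDGFRα. Whether a library is 1 mouse or a pool is not given in the labels, so each p-value measures the spread between libraries. Replicates differed by far more than counting noise, with a chi-square of at least 29.3 per degree of freedom between any pair of a group.

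Imprinted genes are transcribed mainly from the copy inherited from 1 parent, and many of them set fetal and postnatal growth. Genes expressed from the paternal copy, such as Igf2, Dlk1, Peg3 and Mest, are often linked to growth or to mesodermal progenitors, and genes expressed from the maternal copy, such as H19, Cdkn1c and Grb10, often restrain it. Plagl1, a zinc finger transcription factor, is known to regulate several of the others in mouse embryos, and most of the group is switched down together after birth. The counts do not separate the parental copies.

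Against CTRL of the same day, EXP fibroblasts had lower Meg3, Peg3 and Ndn on day 1. On day 2, Meg3, Peg3 and Plagl1 were lower. Below, rose and fell compare EXP with CTRL of the same day unless a change over days is named. On day 4 these genes no longer passed the test, Mest and Grb10 rose, and H19 and Dlk1, scarce in all other groups, were detected at higher levels in EXP. The Mest and Grb10 calls were lost with only the libraries of day 4 and with replicate number as a block. Igf2 was at 5 counts or fewer in every library on every day. Cdkn1c passed the test on no day.

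Sequences are shown for the genes that these results turn on. The promoters of the 3 genes that were lower on day 1, and of Mest, which was higher on day 4, are given as the 250 bases before the transcription start, 5′ to 3′ on the gene's strand, from RefSeq on GRCm38.p6. Peg3 lies at chr7:6730420-6730669 on the minus strand, Ndn at chr7:62348027-62348276 on the plus strand, Meg3 (its upstream start) at chr12:109540746-109540995 on the plus strand, and Mest at chr6:30737800-30738049 on the plus strand. Capitals mark GGGCGG (the GC box), TATAAA (the TATA box) and CCAAT (the CCAAT box), each read on both strands.
Peg3: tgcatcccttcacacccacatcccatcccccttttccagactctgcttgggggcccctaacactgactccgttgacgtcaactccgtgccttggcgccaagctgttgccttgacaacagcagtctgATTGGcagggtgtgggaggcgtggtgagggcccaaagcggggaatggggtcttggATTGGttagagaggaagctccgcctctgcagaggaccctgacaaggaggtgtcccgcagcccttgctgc
Ndn: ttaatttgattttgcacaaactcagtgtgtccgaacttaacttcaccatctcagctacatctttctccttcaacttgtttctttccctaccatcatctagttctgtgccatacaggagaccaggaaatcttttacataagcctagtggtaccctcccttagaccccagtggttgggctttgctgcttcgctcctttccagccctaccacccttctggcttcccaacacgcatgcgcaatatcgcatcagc
Meg3: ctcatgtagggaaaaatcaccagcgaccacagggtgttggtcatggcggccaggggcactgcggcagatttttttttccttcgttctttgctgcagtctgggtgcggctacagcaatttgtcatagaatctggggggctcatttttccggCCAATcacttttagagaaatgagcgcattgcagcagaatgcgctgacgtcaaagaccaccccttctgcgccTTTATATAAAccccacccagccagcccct
Mest: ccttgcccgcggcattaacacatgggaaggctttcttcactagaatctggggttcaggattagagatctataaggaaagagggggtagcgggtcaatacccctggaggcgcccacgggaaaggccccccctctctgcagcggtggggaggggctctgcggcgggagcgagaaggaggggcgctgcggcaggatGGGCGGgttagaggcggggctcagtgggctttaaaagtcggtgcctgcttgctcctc

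Among all 32851 promoters of this length in the table, 32.7% held GGGCGG, 12.4% held TATAAA and 33.8% held CCAAT. The Peg3 window held 2 CCAAT matches and none of the other motifs, and the Ndn window held no match at all. The Meg3 window held 1 CCAAT match and 2 overlapping TATAAA matches, 1 on each strand, and the Mest window held 1 GGGCGG match. CG dinucleotides, the sites of the DNA methylation that marks imprints, numbered 8 for Peg3, 5 for Ndn, 10 for Meg3 and 14 for Mest, beside a median of 6 per window. Other RefSeq windows of these genes, not shown, held 7 and 14 for Mest and 0 for Meg3. The 3 genes that were lower on day 1 therefore had no motif of this set in common. Entries were matched for 8 of the 10 genes; those for H19 and Cdkn1c were not.

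H19 also hosts a microRNA precursor, and its 2 mature products are shown with the seed (bases 2 to 8) in capitals, as they belong to a transcript that was detected mainly in EXP on day 4. The libraries measured the host gene and not these small RNAs.
mmu-miR-675-5p: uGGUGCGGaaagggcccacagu
mmu-miR-675-3p: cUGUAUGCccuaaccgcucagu

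Library totals ran from 21461294 to 30210204 counts. The limit that a count of 0 allows was 3 counts, or 0.0805 to 0.157 CPM (each library's counts per megacount, scaled by edgeR's TMM factors), and covers counting error only. Of the 6 genes of the sorted proteins, Pdgfra ran from 227 to 1022 CPM and Cd34 from 216 to 2346, while Pecam1, Ptprc, Kit and Epcam stayed at or below 3.68 CPM. A set of 192 genes was taken whose deviations from their group means correlated above 0.9 with those of 1 chosen gene, Rnf10. At the largest gap in their mean level, 7 libraries (3 CTRL and 2 EXP of day 1, 2 CTRL of day 4) stood above the other 15. The labels record no batch, and results that rest on these libraries are given below within 1 side of that split.

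The members spanned a wide range of levels. Per kilobase of exon, the median over the 22 libraries was 31.2 CPM for Ndn and 14.6 for Grb10. Plagl1 followed at 4.05 CPM per kilobase, Meg3 at 3.35, Peg3 at 1.84, Cdkn1c at 1.74 and Mest at 0.974. Dlk1 was at 0.0353 CPM per kilobase, Igf2 at 0.00288 and H19 at 0. The plot of values by library shows that 7 members were expressed in every library and that 3 were close to absent outside a few of them.

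**Figure D1:**
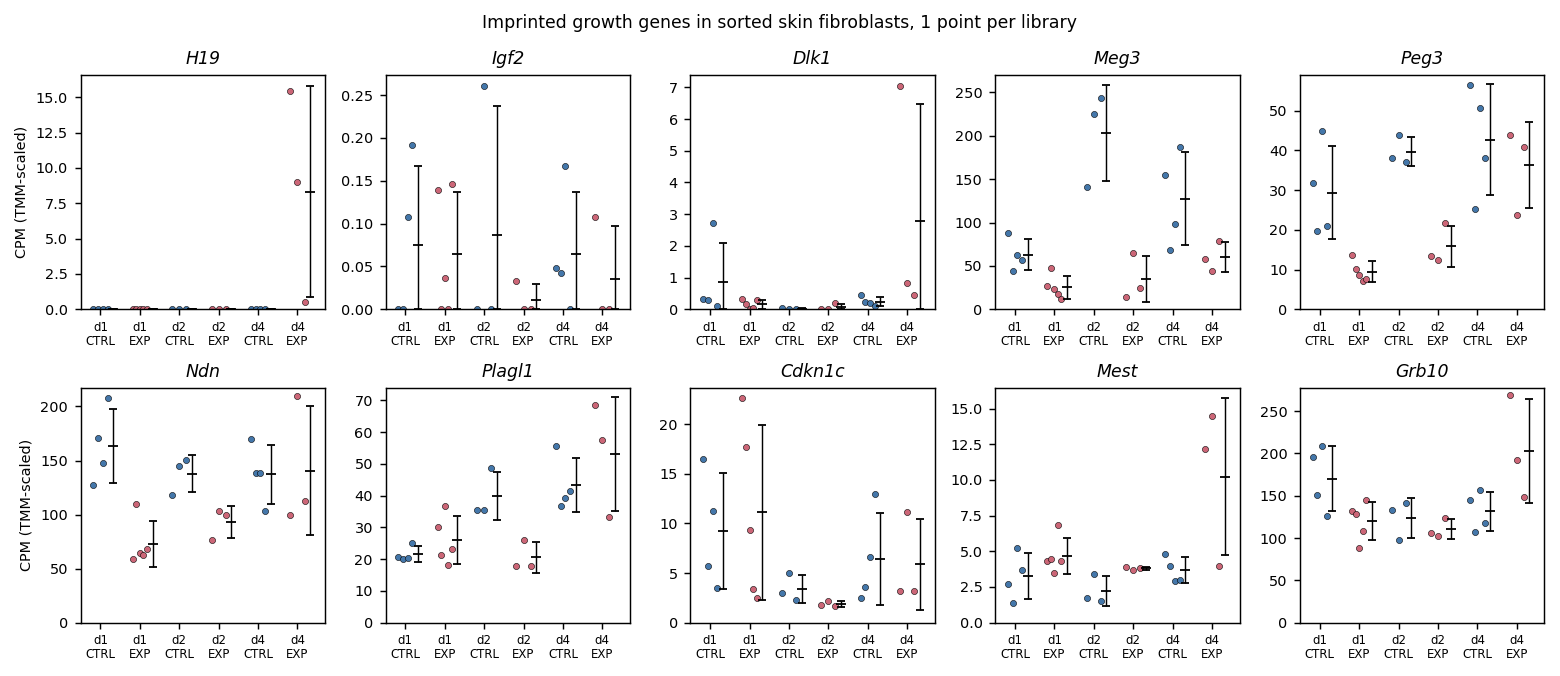
Level of each of the 10 genes (y axis, CPM scaled by TMM) in each library, by day and arm (d1, d2, d4 for days 1, 2 and 4; CTRL blue, EXP red). Points are libraries and the black bars are the group mean ± SD, with the lower bar stopped at 0. H19 leaves 0 in the day 4 EXP group, and Meg3 lies highest in day 2 CTRL, between 141 and 244 CPM.

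Of the 10 members, 9 had enough counts to be tested. H19 and Dlk1 passed that filter, at least 0.394 CPM before TMM scaling in 3 libraries, only through the day 4 EXP group where they are high. They had to differ in that group. Their tests on day 4, over days in EXP and of an EXP effect that depends on day therefore support nothing and are not used. On day 1, 3 members were called lower at an adjusted p under 0.05 (edgeR's quasi-likelihood test with Benjamini-Hochberg adjustment over 17554 genes) and 0 were called higher. Among all genes tested on that day, 14.7% were called lower and 28.6% were called in either direction. For higher calls the share was 13.9%. On day 2, 3 members were called lower and 0 higher, beside 5.71% of all genes called lower, 7.72% called higher and 13.4% called in either direction. On day 4, 4 members were called higher and 0 lower, beside 12.8% of all genes called higher, 9.66% called lower and 22.5% in either direction. Without H19 and Dlk1, 2 of the other 7 members were called higher on day 4 (Mest and Grb10). The 16611 genes that likewise did not reach the filter through a single group had 13.0% called higher on that day. The median log2 fold change of these 7 members was -0.50, -0.87 and 0.03 on days 1, 2 and 4, beside 0.01, 0.02 and 0.03 over those genes.

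Counted by libraries alone, Peg3 and Ndn had every EXP library below every CTRL library on day 1, as did Meg3, Peg3, Plagl1, Cdkn1c and Ndn on day 2. Among all genes tested this held for 12.2% on day 1, 18.4% on day 2 and 11.8% on day 4, where no member did so. Mest on day 2, and H19 and Dlk1 on day 4, had every EXP library above every CTRL library, which for H19 and Dlk1 the filter favoured. The shares of all genes with EXP above were 11.7%, 20.9% and 13.8% on the 3 days.

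**Figure D2:**
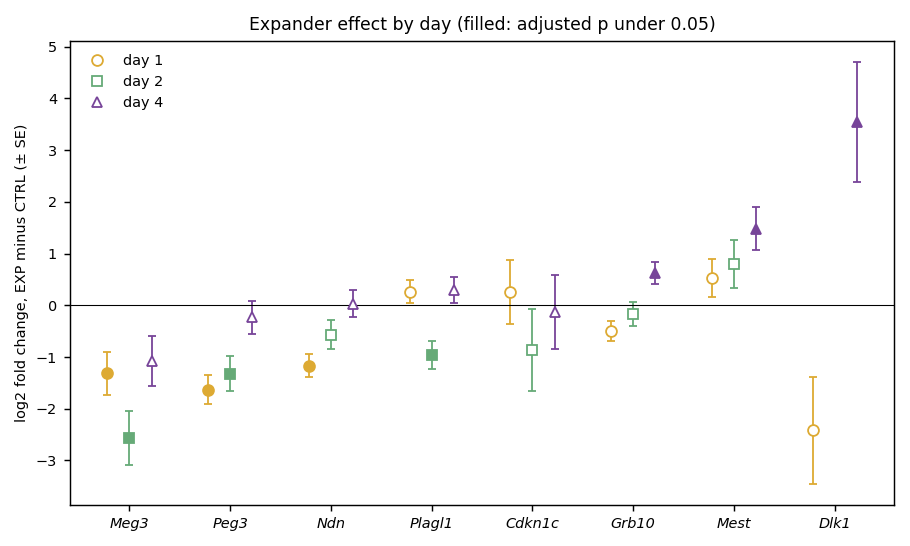
Log2 fold change of EXP against CTRL (y axis, ± SE) for 8 members on days 1, 2 and 4; filled symbols passed an adjusted p under 0.05. Meg3, Peg3 and Ndn lie below 0 on day 1, while Grb10, Mest and Dlk1 lie above 0 on day 4. Dlk1 was tested only because of the day 4 EXP libraries. H19 and Igf2 are left out on all days, and Dlk1 on day 2. The counts of Igf2, and of Dlk1 on day 2, were too low for a fold change, as were those of H19 in every CTRL group.

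Meg3, a long noncoding RNA expressed from the maternal copy of the Dlk1-Dio3 region, was at 87.6, 44.5, 63.1 and 56.4 CPM in CTRL of day 1. In EXP of that day it was at 26.2, 47.1, 23.2, 17.7 and 11.99 CPM. The arms overlapped through 1 EXP library, the second, and the other 4 EXP libraries lay below every CTRL library. The log2 fold change was -1.32 (SE 0.41, adjusted p = 0.0207, edgeR). This call was lost without the first CTRL library (-1.12, adjusted p = 0.0717) and with no filter on low counts (-1.34, adjusted p = 0.0564), and, among the libraries on the high side of the split, the difference was -0.84 (adjusted p = 0.173).

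On day 2, Meg3 was at 141, 225 and 244 CPM in CTRL and at 14.7, 64.6 and 24.1 CPM in EXP. Every EXP library lay below every CTRL library. The fold change was -2.56 on the log2 scale (SE 0.53, adjusted p = 0.00394, edgeR), the lowest of any member on any day that passed the test. It passed under all 15 alternatives run. From day 1 to day 2, Meg3 changed by 1.69 (SE 0.46) on that scale in CTRL and by 0.45 (SE 0.44) in EXP. Neither arm passed the joint test over the 3 days (adjusted p = 0.182 and 0.124, edgeR). On day 4 the values were 155, 68.8, 97.9 and 187 CPM in CTRL and 58.1, 44.1 and 78.3 in EXP. These arms overlapped, and a log2 difference of -1.08 (SE 0.48) had an adjusted p of 0.109 by edgeR. Whether the Meg3 difference changed between days did not pass the test (adjusted p = 0.276).

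Other transcripts of the same region were read beside Meg3. Rian, a noncoding RNA that carries small nucleolar RNAs, fell on day 1 from 18.3 ± 6.15 CPM (SD, n = 4) to 7.91 ± 1.01 (n = 5), a log2 fold change of -1.21 (adjusted p = 0.00787, edgeR). On day 2 it went from 40.0 ± 15.4 to 8.87 ± 6.48 CPM (n = 3 each), or -2.18 (adjusted p = 0.00176), and on day 4 the difference of -0.91 did not pass (adjusted p = 0.0800). Mirg, a noncoding RNA that hosts a microRNA cluster, fell on all 3 days, by -1.36, -2.75 and -1.91 on the log2 scale (adjusted p = 0.0317, 0.00457 and 0.0173, edgeR). At Rtl1, a protein-coding gene of the paternal copy, counts fell on day 2, from 3.49 ± 2.15 to 0.492 ± 0.633 CPM (-2.83, adjusted p = 0.0157, edgeR). In GENCODE M21, Mir127, Mir136, Mir431, Mir432, Mir433 and Mir434 lie opposite its exons. Whether counting used strand is not given, so these counts may hold RNA of the other strand, which was not tested. The noncoding RNAs of the region thus moved in 1 direction with Meg3 on days 1 and 2.

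By the root-mean-square difference of centred log2 CPM over the 22 libraries, the genes nearest to Meg3 were Gm27000 (0.243) and Rian (0.445), beside a median of 1.29 over all genes compared. Gm27000 is a noncoding gene of the X chromosome in GENCODE M21, and 78.4% of its windows of the read length of 150 bases stand letter for letter in Meg3. Its counts and those of Meg3 may therefore come from the same RNA. Meg3 shares 2.9% of its own windows with Gm27000, and 6.8% of its exon bases lie opposite Gm26906.

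**Figure D3:**
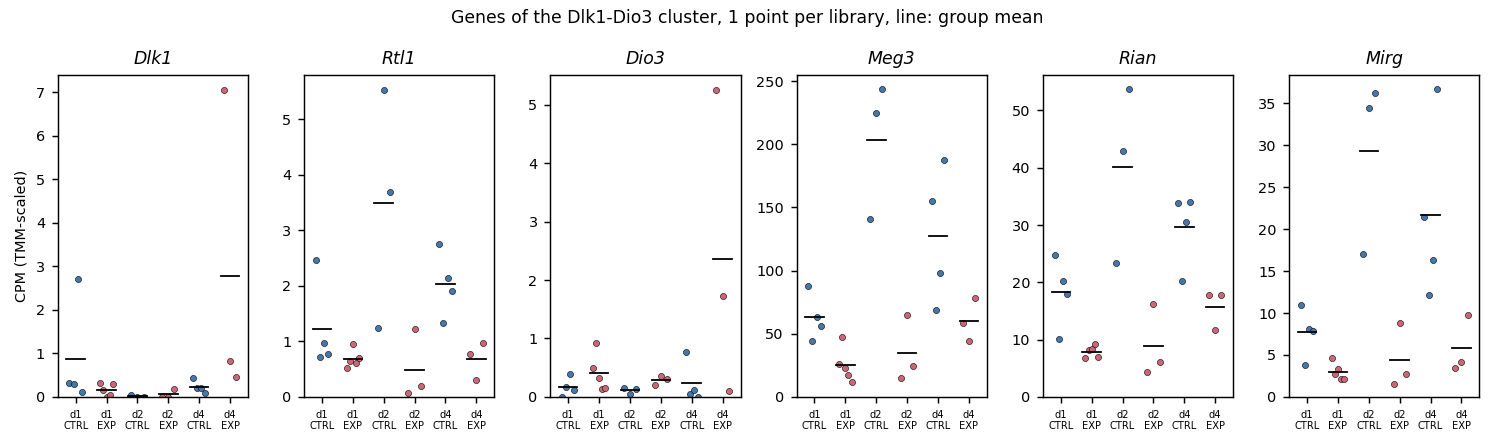
Level of 6 genes of the Dlk1-Dio3 region (y axes, CPM scaled by TMM) in each library by day and arm (CTRL blue, EXP red); lines are group means. Dlk1, Rtl1 and Dio3 (left) are the protein-coding genes, and Meg3, Rian and Mirg (right) are the noncoding RNAs, whose EXP means lie below the CTRL means on all 3 days.

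Dlk1 encodes a membrane protein with epidermal growth factor repeats, related to the Notch ligands and known to hold back fat cell formation. On day 1 it was at 0.329, 0.296, 2.72 and 0.115 CPM in CTRL and at 0.314, 0.161, 0, 0.0318 and 0.292 in EXP. The third CTRL library alone was above 1 CPM, the arms overlapped, and the log2 difference of -2.42 (SE 1.03) did not pass the test (adjusted p = 0.0844, edgeR). Without that library it was -0.61 (adjusted p = 0.713). On day 2 it had at most 1 count in any CTRL library and at most 5 in any EXP library, and no fold is given.

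On day 4, Dlk1 was at 0.435, 0.214, 0.209 and 0.0865 CPM in CTRL and at 7.05, 0.833 and 0.464 in EXP. All 3 EXP libraries were above all 4 CTRL libraries, but the first EXP library stood far above the other 2. The fitted log2 difference was 3.55 (SE 1.16), and without the first EXP library it was 1.45. On the low side of the split it was 3.08.

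Dio3, the enzyme at the other end of the region that inactivates thyroid hormone, followed the same order of libraries on day 4. It was at 5.26, 1.74 and 0.107 CPM in EXP and at 0.773, 0.0429, 0.126 and 0 in CTRL. The arms overlapped, and the log2 fold change was 3.34 (SE 1.10, adjusted p = 0.0340, edgeR). The genes nearest to Dlk1 over the 22 libraries were Nid2 (1.06), a basement membrane protein, and Mfap5 (1.07), a microfibril protein, beside a median of 1.71.

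Of the 19 genes on a list of Notch receptors, ligands and targets, 13 were tested. On day 1, 1 rose and 1 fell, and the same counts held on day 2. On day 4, 1 rose and 4 fell. Among all genes tested, 13.9, 7.72 and 12.8% were called higher on days 1, 2 and 4, and 14.7, 5.71 and 9.66% lower. Hes1, a target gene of Notch signalling, fell on day 1 from 21.3 ± 3.84 to 10.3 ± 3.59 CPM (n = 4 and 5) and on day 2 from 30.9 ± 7.78 to 10.9 ± 1.52 (n = 3 each), with log2 fold changes of -1.05 and -1.51 (adjusted p = 0.00196 and 0.00187, edgeR). It also fell on day 4 (-0.89, adjusted p = 0.0221). Jag1, a ligand, rose on day 4 from 2.89 ± 0.542 (n = 4) to 10.1 ± 6.22 CPM (n = 3; 1.81, adjusted p = 0.00305), and Hey1, another target, fell (-2.08, adjusted p = 0.0203). Dll1, a ligand, rose on day 1 (1.53, adjusted p = 0.0246).

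H19, a long noncoding RNA expressed from the maternal copy beside Igf2, was silent in nearly all libraries. Outside the day 4 EXP group it had 2 counts in all, and it was at 0 in 17 of those 19 libraries. In the 3 EXP libraries of day 4 it reached 15.5, 8.99 and 0.535 CPM, from 577, 259 and 15 counts, while all 4 CTRL libraries of day 4 were at 0. Every EXP library exceeded every CTRL library, and the third lay far below the other 2.

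Against a floor of 3 counts per CTRL library, mean H19 on day 4 was at least 63.0-fold higher in EXP, with 8.33 ± 7.49 CPM (SD, n = 3). The CTRL libraries were at 0 on both sides of the library split, and all 3 EXP libraries lay on its low side. On days 1 and 2 both arms were at or below the floor. The genes nearest to H19 over the 22 libraries were Emb, a cell surface glycoprotein (1.16), and Mfap5 (1.24), beside a median of 2.17.

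Igf2, the fetal growth factor next to H19, had 33 counts in all 22 libraries together. Group means lay between 0.0110 and 0.0870 CPM, all under the level that 3 counts would give in the shallowest library. Igf2 was not tested. In GENCODE M21, 62.8% of its exon bases are shared on the same strand with a second gene model, Gm49394, which was at 0 in all 22 libraries. Gnas, an imprinted gene of broad expression whose exons lie in part opposite other genes, had group means of only 0.665 to 0.931 CPM. Reads that fall on 2 genes may not have been counted, which was not tested, so absence of Igf2 RNA cannot be read from these counts.

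Peg3, a zinc finger protein of the paternal copy, was at 31.8, 19.7, 44.9 and 20.9 CPM in CTRL of day 1 and at 13.6, 10.2, 8.75, 7.002 and 7.73 in EXP. No EXP library reached a CTRL library. On the log2 scale the change was -1.64 (SE 0.28, adjusted p = 0.000238, edgeR). It passed under all 18 alternatives run on day 1, and within the high side of the split it was -1.45 (adjusted p = 0.0230).

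On day 2, Peg3 was at 38.1, 44.0 and 37.2 CPM in CTRL and at 13.4, 12.4 and 21.8 in EXP, again without overlap. The log2 fold change was -1.32 (SE 0.34, adjusted p = 0.0140, edgeR), and it lost the call without EXP library 1 (-1.21, adjusted p = 0.0802) or 2 (-1.18, adjusted p = 0.0503), and with library totals unscaled by TMM (-0.86, adjusted p = 0.0794). On day 4 the arms overlapped, at 56.6, 25.2, 50.8 and 38.1 CPM in CTRL and 44.0, 23.8 and 40.8 in EXP, with a log2 difference of -0.24 (SE 0.31, adjusted p = 0.626). In EXP libraries Peg3 rose over the days, by 1.94 on the log2 scale from day 1 to day 4 (SE 0.30; joint test over days, adjusted p = 0.000582). The genes nearest to it were Mdga1 (0.425) and Pofut1 (0.444), beside a median of 1.03.

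Ndn encodes necdin, a growth-restraining protein of the MAGE family expressed from the paternal copy, and it was the most abundant member per kilobase. On day 1 it was at 127, 170.5, 148 and 208 CPM in CTRL and at 58.9, 109.9, 63.9, 62.7 and 68.0 in EXP. The arms did not overlap, and the second EXP library stood above the other 4. Fitted over all libraries, the log2 fold change was -1.17 (SE 0.22, adjusted p = 0.000624, edgeR), and within the high side of the split it was -0.82 (adjusted p = 0.0868). On day 2, at 118, 145 and 151 CPM in CTRL and 76.1, 103 and 99.8 in EXP, the arms again did not overlap, but a log2 difference of -0.57 (SE 0.27) did not pass (adjusted p = 0.179).

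By day 4 the Ndn arms overlapped fully, at 169.8, 138, 138 and 103 CPM in CTRL and 99.9, 209 and 113 in EXP (0.03, adjusted p = 0.940). Closest in pattern to Ndn were Mcrip1 (0.213) and Cavin3 (0.229), beside a median of 0.69.

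Plagl1 differed between the arms on day 2 only among the 3 days tested. It was at 35.4, 35.6 and 48.7 CPM in CTRL and at 17.8, 26.0 and 17.7 in EXP, without overlap. The log2 fold change was -0.96 (SE 0.27, adjusted p = 0.0220, edgeR). The call was lost without CTRL library 3 (-0.81), EXP library 1 (-0.86) or EXP library 3 (-0.88), and with library totals unscaled by TMM (-0.50, adjusted p = 0.217). Fitted on the low side of the split, which holds all libraries of day 2, it was -0.96 (adjusted p = 0.0550). On day 1 it was at 20.7, 20.1, 20.2 and 25.2 CPM in CTRL and at 30.03, 21.2, 36.9, 18.1 and 23.3 in EXP, and on day 4 at 55.7, 36.7, 39.3 and 41.4 in CTRL and 68.6, 57.6 and 33.3 in EXP. Both days overlapped, with log2 differences of 0.26 and 0.30 (adjusted p = 0.397 and 0.409).

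The difference between days was itself called for Plagl1 (joint test of the EXP effect over days, adjusted p = 0.0411, edgeR). The day 2 effect was lower than the day 1 effect by -1.22 (SE 0.35) on the log2 scale. From day 1 to day 2, Plagl1 changed by 0.89 (SE 0.25) in CTRL and by -0.34 (SE 0.24) in EXP. Leaving out 1 library at a time ended the call of a difference between days in 15 of 22 fits. That call was also lost with the split as a covariate (-1.18, adjusted p = 0.0538, edgeR). The same held with library totals unscaled by TMM (-0.96, adjusted p = 0.105) and with replicate number as a block (-1.22, adjusted p = 0.112). Nearest to Plagl1 over the libraries were Bmp1 (0.360), a protease of collagen maturation, and Ada (0.369), adenosine deaminase, beside a median of 0.72.

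Cdkn1c, the cell cycle inhibitor p57, varied more between libraries of a group than between arms. On day 1 it was at 16.5, 5.72, 11.2 and 3.49 CPM in CTRL and at 22.6, 17.7, 9.36, 3.34 and 2.52 in EXP. On day 2 it was at 2.94, 5.01 and 2.25 CPM in CTRL and at 1.78, 2.16 and 1.63 in EXP, a narrow gap without overlap, with a log2 difference of -0.87 (SE 0.79, adjusted p = 0.513, edgeR). On day 4 it was at 2.51, 3.60, 6.66 and 12.9 CPM in CTRL and at 3.19, 11.2 and 3.21 in EXP. In both arms of day 1 and in CTRL of day 4, every library on the high side of the split lay above every one on the low side. In EXP of day 4, all on the low side, Cdkn1c still ran from 3.19 to 11.2 CPM. The part of the split in this spread was not tested. The differences on days 1 and 4, 0.27 (SE 0.62) and -0.13 (SE 0.71), did not pass, and their errors leave room for changes of either sign. Its nearest genes were March8 (0.566) and Rragc (0.611), beside a median of 1.21, and 30.7% of its exon bases lie opposite Gm44732, which was at 0 in every library.

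Of the 6 other cyclin-dependent kinase inhibitors on the list, 5 were tested. On day 1, 1 rose and 3 fell, on day 2 none rose and 2 fell, and on day 4 none rose and 3 fell. The shares of all genes called higher were 13.9, 7.72 and 12.8% on the 3 days, and of those called lower 14.7, 5.71 and 9.66%. Cdkn2c (p18) fell on day 1 from 12.5 ± 3.06 (n = 4) to 2.59 ± 0.915 CPM (n = 5), a log2 fold change of -2.27 (adjusted p = 3.36e-05, edgeR). Cdkn1a (p21) rose on day 1 (0.57, adjusted p = 0.0176) and fell on day 2, from 925 ± 133 to 512 ± 20.7 CPM (n = 3 each; -0.85, adjusted p = 0.0103), and on day 4 (-0.90, adjusted p = 0.00417). Cdkn2b (p15) fell on days 1 and 4, by -1.31 on both, and Cdkn2d (p19) fell on all 3 days, by -1.19, -1.15 and -0.60 (adjusted p = 8.81e-05, 0.00228 and 0.0418).

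Grb10 is an adaptor protein that binds the insulin and IGF1 receptors and dampens their signal. On day 4 it was at 145, 107, 157 and 117 CPM in CTRL and at 269, 192 and 148 in EXP, so that 2 EXP libraries lay above all CTRL libraries and the third lay among them. A log2 fold change of 0.63 resulted (SE 0.22, adjusted p = 0.0452, edgeR). Leaving out 1 library ended the call in 5 of 7 fits, with a lowest value of 0.37 without EXP library 1 and values of 0.54 to 0.67 without CTRL library 1, 2 or 4 or EXP library 2. On the low side of the split it was 0.68 (adjusted p = 0.147). It also lost the call with only the libraries of day 4 (0.60, adjusted p = 0.142, edgeR) and with replicate number as a block (0.55, adjusted p = 0.138). With no filter on low counts it was 0.64 (adjusted p = 0.0514). On day 1 Grb10 was at 195, 150.4, 209 and 127 CPM in CTRL and at 132, 129, 87.9, 108 and 145 in EXP (-0.50, SE 0.19, adjusted p = 0.0570).

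On day 2 the Grb10 values were 133, 97.1 and 141 CPM in CTRL and 106, 102 and 123.9 in EXP, which overlapped (-0.16, adjusted p = 0.701). The joint test called a difference of its EXP effect between days (adjusted p = 0.0424, edgeR), with the day 4 effect above the day 1 effect by 1.13 (SE 0.29), although leaving out 1 library ended that call in 16 of 22 fits. The genes nearest to Grb10 were Adam10 (0.233), a protease that sheds membrane proteins, and Tmem135 (0.244), beside a median of 0.58.

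Of 27 genes on a list of IGF and insulin signalling, 26 were tested. On day 1, 4 rose and 8 fell, on day 2, 4 rose and 5 fell, and on day 4, 3 rose and 6 fell. Over all genes tested, the shares called higher were 13.9, 7.72 and 12.8%, and the shares called lower 14.7, 5.71 and 9.66%. Igfbp5, an IGF-binding protein, fell on day 1 from 546 ± 162 (n = 4) to 94.2 ± 20.9 CPM (n = 5) and on day 2 from 774 ± 241 to 119 ± 60.2 (n = 3 each), with log2 fold changes of -2.53 and -2.70 (adjusted p = 1.24e-05 and 0.000202, edgeR). On day 4 the drop was of the same order (-2.53, adjusted p = 0.000291). Igfbp2 fell on days 1 and 4 (-4.44 and -6.69, adjusted p = 0.00120 and 0.00197). Pappa2, a protease that cleaves IGF-binding proteins, rose on day 2 from 5.44 ± 3.11 to 29.0 ± 14.0 CPM (n = 3 each; 2.41, adjusted p = 0.0132), and Htra1, another secreted protease, fell on day 4 (-3.80, adjusted p = 0.0102). The receptor Igf2r, itself imprinted, fell on day 1 (-1.01, adjusted p = 0.0190), and it was chosen for mention after its value was seen.

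Mest, a hydrolase-like protein of the paternal copy known as a marker of fat tissue growth, was at 4.83, 3.94, 2.89 and 2.99 CPM in CTRL of day 4. In EXP it was at 12.1, 14.5 and 4.00 CPM, with the third library inside the CTRL range. The log2 fold change was 1.48 (SE 0.41, adjusted p = 0.0152, edgeR), and the call was lost without EXP library 1 (1.34, adjusted p = 0.0694) or EXP library 2 (1.13, adjusted p = 0.105). On the low side of the split the difference was 1.21 (adjusted p = 0.152). The call was also lost with only the libraries of day 4 (1.46, adjusted p = 0.0660, edgeR) and with replicate number as a block (1.24, adjusted p = 0.0672).

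On day 1, Mest was at 2.72, 1.36, 5.22 and 3.71 CPM in CTRL and at 4.33, 4.44, 3.45, 6.84 and 4.34 in EXP. On day 2 it was at 1.69, 3.39 and 1.48 CPM in CTRL and at 3.89, 3.70 and 3.79 in EXP, without overlap. Neither log2 difference, 0.52 (SE 0.37) or 0.80 (SE 0.46), passed the test (adjusted p = 0.309 and 0.269). In M21, 23.1% of the Mest exon bases lie opposite Copg2, which was at 8.09 to 23.7 CPM, and whether counting used strand is not given in the sources used here. On day 4 Copg2 itself was at 17.0 ± 3.496 CPM in CTRL (n = 4) and 15.2 ± 3.20 in EXP (n = 3). Nearest to Mest over the libraries were Phlda1 (0.467) and Loxl1 (0.494), a lysyl oxidase-like enzyme of elastic fibres, beside a median of 0.87.

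Over the days within EXP, 7 members changed by the joint test (H19, Dlk1, Peg3, Plagl1, Mest, Grb10 and Ndn), beside 14.3% of all genes tested. Without H19 and Dlk1 it was 5 of 7, beside 14.5% of the genes that did not reach the filter through a single group. From day 1 to day 4 the log2 change was 1.94 for Peg3, 1.13 for Mest, 1.04 for Plagl1, 0.95 for Ndn and 0.75 for Grb10, with SEs of 0.30, 0.39, 0.23, 0.24 and 0.21. Leaving out 1 library ended the call for Mest in 9 of 11 fits, for Ndn in 4 and for Grb10 in 2. The lowest values were 0.74, 0.50 and 0.50, and neither Peg3 nor Plagl1 lost the call. With the split as a covariate, Mest and Ndn lost it (adjusted p = 0.0644 and 0.0559, edgeR). They also lost it with replicate number as a block (adjusted p = 0.114 and 0.0561), as did Mest with library totals unscaled by TMM (adjusted p = 0.0783). Within CTRL, 0 members changed by edgeR, beside 0.291% of all genes. There, 3 members (Dlk1, Meg3 and Plagl1) had an unadjusted p under 0.05, and DESeq2 called 2 (Meg3 and Plagl1). From day 1 to day 4 the CTRL changes were 0.54 for Peg3, 0.17 for Mest, 1.00 for Plagl1, -0.25 for Ndn and -0.37 for Grb10. Their SEs were 0.29, 0.39, 0.23, 0.24 and 0.21. Plagl1 thus rose in both arms, and its EXP effect on day 4 exceeded that on day 1 by only 0.03 (SE 0.33). A difference in the EXP effect between days was called for 3 members (Dlk1, Plagl1 and Grb10), beside 8.82% of all genes. Without H19 and Dlk1 it was 2 of 7, beside 9.1% of the genes that did not reach the filter through a single group. The labels do not say which libraries of different days were processed together, so day and processing cannot be told apart within an arm.

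Markers of other cells moved with the arms on day 4, as the plot of members and marker sums shows. The summed level of 8 adipocyte markers was 3.81 to 6.06 CPM in CTRL, with Plin1 and Lep at 0 in all 4 libraries, and 46.0, 185 and 534 CPM in EXP libraries 1, 2 and 3. H19, Dlk1 and Grb10 ran in the opposite order, highest in EXP library 1. In EXP library 1, 1 of the 8 adipocyte markers was at 0. This was Adipoq, a defining marker of fat cells, at 16.8 and 52.9 CPM in libraries 2 and 3. The 8 endothelial markers summed to 4.15 to 11.4 CPM in CTRL and to 25.9, 57.0 and 24.8 in EXP. The 8 skeletal muscle markers summed to 2.12 to 4.31 CPM in CTRL and to 7.59, 4.48 and 2.71 in EXP, the order of H19, with Myh4 and Myh2 at 0 in all EXP libraries.

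Fibroblast and mural cell markers ran against that order. The 7 fibroblast markers summed to 188336 to 248803 CPM in CTRL and to 41074, 90447 and 185247 in EXP libraries 1, 2 and 3, so EXP library 1, where H19, Dlk1 and Grb10 were highest, had the lowest sum. The 8 pericyte and smooth muscle markers summed to 58.8 to 123.98 CPM in CTRL and to 25.1, 68.4 and 71.2 in EXP. Of 6 muscle progenitor markers, Pax7, Myf5, Myod1 and Myog were at 0 in all 22 libraries, and the sum of the list was 6.30 to 14.0 CPM in CTRL and 4.13, 2.85 and 33.9 in EXP. Lists for keratinocytes, immune cells, melanocytes and Schwann cells overlapped between the arms on day 4. The part of these cell markers in the day 4 differences was not tested. In bulk libraries such as these, fewer cells of a type and less RNA per cell cannot be told apart.

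**Figure D4:**
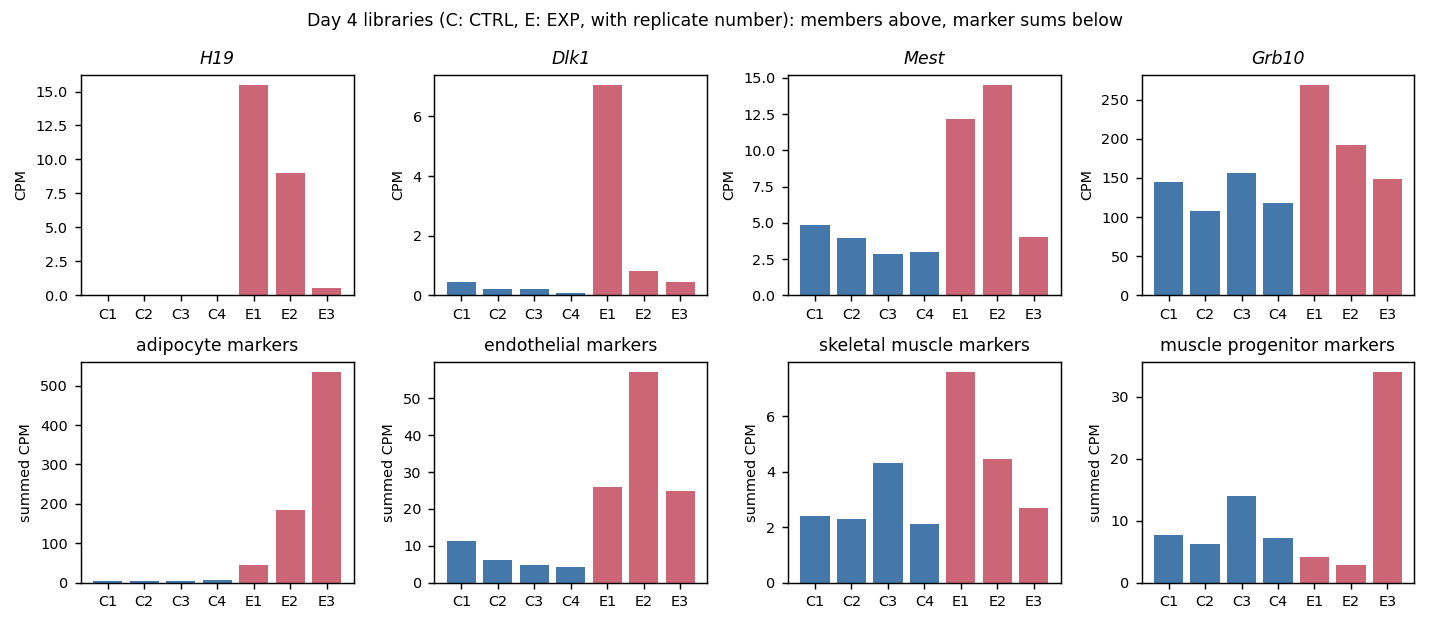
Day 4 libraries (C1 to C4, CTRL, blue; E1 to E3, EXP, red): CPM of H19, Dlk1, Mest and Grb10 above, and summed CPM of 4 marker lists below. H19 is highest in E1 at 15.5 CPM. The adipocyte sum there, 46.0 CPM, is the lowest of the 3 EXP libraries and lies above every CTRL library.

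On days 1 and 2, the fibroblast list itself was lower in EXP. Its 7 genes, which include the collagen genes Col1a1 and Col1a2, summed to 138124 to 191587 CPM in CTRL and 74281 to 117186 in EXP on day 1, and to 236325 to 288851 and 49066 to 120443 on day 2. The 8 pericyte and smooth muscle markers summed to 49.9 to 92.2 CPM in CTRL and 21.5 to 45.7 in EXP on day 1, and to 88.7 to 97.7 and 30.1 to 52.9 on day 2. Neither list overlapped between arms on these days. On day 2 the muscle progenitor list summed to 2.77 to 14.5 CPM in CTRL and 32.2 to 87.1 in EXP, and the adipocyte list to 4.22 to 8.30 and 9.71 to 95.2. The endothelial list of that day summed to 0.498 to 0.783 CPM in CTRL, with Tie1, Emcn and Cldn5 at 0, and 2.08 to 7.39 in EXP, and the 9 keratinocyte markers to 9.85 to 40.4 and 5.54 to 6.93. On day 1 the 7 Schwann cell markers summed to 3.39 to 4.74 CPM in CTRL and 0.454 to 3.27 in EXP. These ranges did not overlap between the arms, and the other lists overlapped on days 1 and 2. The part of these lists in the lower Meg3, Peg3, Ndn and Plagl1 values was not tested.

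A list of 30 other imprinted genes was read for comparison, of which 24 were tested. On day 1, 1 rose and 9 fell, on day 2, 0 rose and 5 fell, and on day 4, 2 rose and 3 fell. Beside them, 13.9, 7.72 and 12.8% of all genes tested were called higher on the 3 days, and 14.7, 5.71 and 9.66% lower. The median log2 fold change of the list was -0.53, -0.12 and -0.01, beside 0.02, 0.02 and 0.03 over all genes tested. Snrpn, which encodes a splicing protein and lies in the same imprinted domain as Ndn, fell on day 1 from 3.24 ± 0.581 (n = 4) to 0.775 ± 0.438 CPM (n = 5), or -2.07 on the log2 scale (SE 0.39, adjusted p = 0.000517, edgeR). Kcnq1ot1, the antisense RNA of the domain that holds Cdkn1c, was the only one that rose on day 1, from 10.4 ± 2.63 to 33.2 ± 22.3 CPM (1.68, SE 0.42, adjusted p = 0.00540).

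Slc38a4, a paternally expressed amino acid transporter, rose on day 4. It was at 16.3, 9.92 and 1.39 CPM in EXP and at 0.532, 0.214, 0 and 0.0433 in CTRL, so the arms did not overlap and the EXP libraries followed the order of H19. Its log2 fold change was 5.55 (SE 0.97, adjusted p = 0.000975, edgeR). Among the 24 genes in the plot of other imprinted genes, Slc38a4 and Dio3 were the 2 that rose on day 4.

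**Figure D5:**
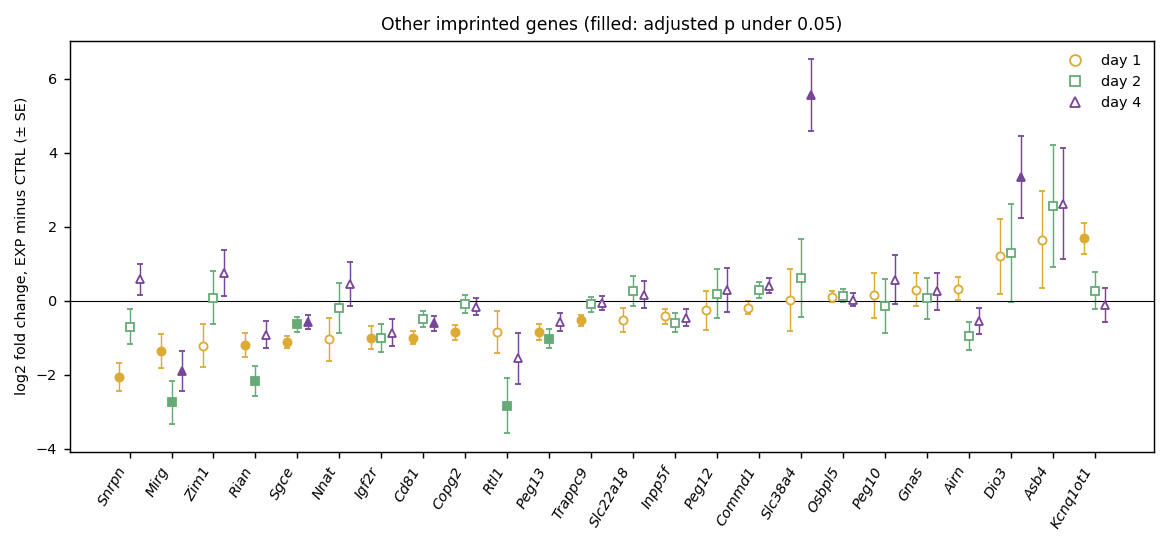
Log2 fold change of EXP against CTRL (y axis, ± SE) for the 24 tested genes of the list of other imprinted genes on days 1, 2 and 4; filled symbols passed an adjusted p under 0.05. Slc38a4 on day 4 lies at 5.55, and Snrpn on day 1 lies at -2.07.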

How the data were processed

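Bulk RNA was measured in 22 libraries of sorted mouse skin fibroblasts. The authors deposited raw read counts per gene; Trimmomatic and the build mm39 appear in the submitters' processing notes, while the aligner, the counter, the annotation release and the use of strand are not given in the sources used here. Per the labels, reads were paired, of 150 bases each. Symbols came from GENCODE M21, which named 52081 of 55414 identifiers. Columns of libraries outside the labels numbered 0.

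The counts were analysed in R 4.3.3 with edgeR 4.0.16: filterByExpr on the 6 groups (minimum count 10, 17554 genes kept), TMM scaling, and a robust quasi-likelihood F-test on all 22 libraries with a mean per group (16 residual degrees of freedom). P-values were adjusted by Benjamini-Hochberg over all genes tested, and called under 0.05. Nearest genes were compared on log2 CPM with a prior count of 2, centred per gene, among genes averaging 5 CPM or more. CPM per kilobase used merged M21 exons. DESeq2 1.42.0 was an alternative. Counts without genes that reach the filter through a single group were added after seeing the data.

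The members and lists were chosen with earlier results of these data known. The rule named all 10 members, the sort genes, for each member the 2 nearest genes, and from each list on each day up to 2 called genes of the largest change averaging 1 CPM or more. The other genes of the Dlk1-Dio3 region, and further days of named genes, were added after their values were seen. The labels do not say whether same-numbered libraries were paired, so the numbers were used as a block only in an alternative fit. The fit was tested on simulated data of day 4: among 17154 genes with 200 changed, 21.2% of 2-fold and 57.1% of 4-fold changes were recovered, with 1 false call among 78. In the data, 3943 of 17554 genes were called on that day. So many more genes change there that these rates cannot be carried over.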

Additional observations from a re-analysis of the deposited data

Results flagged for a closer look

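Among 27 groups of 4 or 5 libraries, 3 held a library far from the others by Dixon's criterion, where chance gives about 1.35 (1 in 20). Dlk1 in the third CTRL library of day 1 was at 2.72 CPM, beside 0.115 to 0.329 in the other 3. Plagl1 in the fourth CTRL library of day 1 was at 25.2 CPM, beside 20.1 to 20.7. Ndn in the second EXP library of day 1 was at 109.9 CPM, beside 58.9 to 68.0; Meg3 was also highest in that library among EXP of day 1.

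A difference of the EXP effect between days was called for 3 members by edgeR's joint test over all genes, for Dlk1 without support as given below. The adjusted p was 0.0420 for Dlk1, 0.0411 for Plagl1 and 0.0424 for Grb10. For Dlk1 the day 4 effect exceeded the day 1 effect by 5.97 (SE 1.55) on the log2 scale, and leaving out 1 library ended its call in 13 of 22 fits, with 3.86 without EXP library 1 of day 4 and 4.16 without CTRL library 3 of day 1. Dlk1 was tested only because of the day 4 EXP libraries, where it is high, so its call supports nothing. Peg3 (adjusted p = 0.0746) and Ndn (0.0635), whose difference lay below 0 on day 1 and near 0 on day 4, did not pass.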

How the results depend on the processing

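Of 1020 values of members recomputed under alternatives, 887 kept their side of the threshold, 22 of them below it in both fits with a changed sign; 109 lost the call, 24 gained it and 0 called values changed sign. Peg3 on day 1 and Meg3 on day 2 kept their calls under the 18 and 15 alternatives run. Members called on day 1 (3) went to 1 among the 7 libraries of the split's high side alone, a fit of fewer libraries. On day 2 (3) they went to 1 without TMM. On day 4 (4) they went to 2 without a filter and to 1 each with only that day's libraries, on the low side of the split and with the replicate block. Day-dependent members (3) went to 0 with the replicate block and to 6 by DESeq2, and members changing over days in CTRL (0) to 2 by DESeq2. Members changing over days in EXP (7) went to 5 with the split as a covariate and to 5 with the replicate block. Leaving out 1 library gave 2 to 4 members on day 1, 1 to 3 on day 2, 1 to 4 on day 4, 0 to 5 for the day-dependent effect, 4 to 7 over days in EXP and 0 over days in CTRL. Where a cause is not named, the cause was not tested.

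The labels do not say whether same-numbered libraries were paired. Correlations of same-numbered libraries ran from -0.0664 to 0.164 over 10 pairs. Of 20 libraries, 9 correlated best with their own number (6 of 6 on day 4, 3 of 8 on day 1, 0 of 6 on day 2). This is a hint from the data and not the design. The replicate block changed the genes called over all from 3943 to 2702 on day 4, from 1549 to 401 for the day-dependent effect, from 2502 to 1432 over days in EXP and from 51 to 19 in CTRL. On day 4 it gave log2 fold changes of 2.45 for Dlk1, 1.24 for Mest and 0.55 for Grb10 (adjusted p = 0.210, 0.0672 and 0.138), none of them called.

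Among all genes, library totals without TMM moved the median log2 fold change to 0.21, 0.49 and 0.36 on days 1, 2 and 4 and the share of calls that were higher from 48.7, 57.5 and 57.0% to 66.2, 90.5 and 80.7%; Peg3 and Plagl1 on day 2 were then -0.86 and -0.50. Calls moved by over 1.5 times to 4631 on day 2 and 163 over days in CTRL without TMM, 2257 on the high side on day 1, 1128 with only day 4 libraries, 1084 on the low side on day 4, 29 in CTRL with the split as a covariate, and 2606 and 519 by DESeq2 for the day-dependent effect and CTRL. Also requiring a log2 fold change of at least 1 left 2504, 1568 and 2405 on days 1, 2 and 4. Leaving out 1 library moved these counts from 2359 to between 891 and 2177 on day 2, lowest without EXP 1 and also past 1.5 times without CTRL 1, CTRL 2 or EXP 3 (1465, 1220 and 1401). On day 4 they went from 3943 to 1633 without EXP 1 and 2001 without EXP 2, the same libraries that moved days in EXP to 1648 and 1367. Day-dependent calls went to 898 without CTRL 3 of day 1, and to 951 and 2572 without EXP 2 and EXP 3 of day 4. Calls over days in CTRL ran from 5 to 92, past 1.5 times in 8 of 11 fits. Depth limits H19, Igf2 and Dlk1, at or near 3 counts in most libraries.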

Other observations

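The ratio of the counts of neighbouring members was taken in each library where both had more than 3 counts, as log2 of the count ratio without correction for length. For Meg3 over Dlk1 it was 8.05, 7.23 and 4.54 in 3 CTRL libraries of day 1 and 6.38, 8.19 and 5.36 in 3 EXP libraries. On day 4 it was 8.48, 8.33 and 8.87 in 3 CTRL libraries and 3.04, 5.73 and 7.40 in EXP libraries 1, 2 and 3. The day 4 EXP ratios all lay below those of CTRL. This rests in part on the high Dlk1 counts of that group and is no separate support. On day 2, 1 library, in EXP, gave a value, 6.99. H19 over Igf2 could be formed in 1 library, EXP library 1 of day 4, at 7.17.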
